A study of Sus scrofa with 12 samples.

Results

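The control arm of a study of porcine fat cell differentiation is described: RNA of subcutaneous preadipocytes taken to day 4 of differentiation after transfection with a negative control siRNA, set against RNA of undifferentiated preadipocytes at day 0. It comprises 3 of the 12 arrays of the series, chosen by the label for control siRNA, and all 43221 non-control probes on them. Each array carried 2 dyes. Cy3 held the transfected, differentiated cells, and Cy5 held day 0 preadipocytes that were neither transfected nor differentiated, a reference shared by every array. The other 9 arrays carried cells that received an siRNA against F2RL2, LGR4 or GPR124 (3 arrays each), likewise at day 4. All cells came from female porcine subcutaneous tissue, were grown in low-glucose medium (1.0 g/L) with 10% serum, and were differentiated in high-glucose medium (4.5 g/L) with serum, 5 µg/ml insulin, 0.25 µM dexamethasone, 33 µM biotin, 17 µM pantothenate and 5 mM octanoate. How many animals gave cells, and whether the replicates are independent cultures, is not in the labels, so each p-value covers array-to-array spread alone, possibly technical. In such bulk RNA, fewer cells of a type and less RNA per cell cannot be told apart.

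Preadipocytes are fibroblast-like precursors of fat cells. Insulin and the glucocorticoid dexamethasone start a cascade of transcription factors, with C/EBP proteins acting early and PPARγ and C/EBPα later, under which the cells lose precursor and matrix transcripts and gain those for fatty acid uptake, lipid synthesis and lipid droplet coating. Octanoate, a medium-chain fatty acid, promotes this conversion in porcine cultures. None of these genes can be followed by name here. The files pair no probe with a gene, 0 of the 43221 probe names occurred in the RefSeq and Ensembl tables at hand, and no probe sequence is given, so the labelled cell type was not checked against its markers and results are given by probe.

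The 3 arrays were alike in quality. On each array more probes were well above background in Cy5 (31024 to 32394) than in Cy3 (27810 to 28372). That mark is set by the scanner software when a spot clearly exceeds the background that the software estimates. The signal needed for it differs between arrays and channels. The spots of a negative control sequence, which should bind nothing, lay 22.0 to 27.5 units above local background in Cy3 and 7.0 to 8.0 units in Cy5. No probe was saturated. Log ratios correlated at 0.974 to 0.983 between arrays over 30735 probes, and the median SD over the 3 arrays was 0.074 on the log2 scale. Probes are not independent replicates. For the 26893 probes well above background in both channels on all 3 arrays, the normalized log2 signal had a median SD over arrays of 0.073 in Cy3 and 0.038 in Cy5. The day 4 signals in Cy3 thus varied more than the repeated reference signals in Cy5. Dye and sample cannot be told apart in that difference, nor in the number of probes marked well above background.

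Many of the transcripts measured differed between day 4 and the day 0 reference, most of those by little. Ratios below are log2 of Cy3 over Cy5, so a positive value means more RNA at day 4. Of 30735 probes tested, 22842 passed (74.3%; limma, Benjamini-Hochberg adjusted p under 0.05), 10608 of them higher at day 4 (34.5%) and 12234 lower (39.8%). The median size among the 22842 was 0.38, or 1.30-fold, and 14596 of them (63.9%) stayed under 0.5. The smallest ratio called was 0.10 and the largest not called 0.41, so with 3 arrays the limit of what could be called lay between these. Of the probes tested, 25757 had the same sign on all 3 arrays (83.8%), and so did 3036 of the 7893 that did not pass (38.5%). The reference enters as 1 sample, its own spread is left out of the test, the reference cells were not transfected and dyes were not swapped. Differentiation, transfection and dye therefore cannot be told apart in any single ratio. The 3 control arrays also lay on 1 slide, and in a fit of all 12 arrays with slide as a block 13549 probes passed (44.1%).

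**Figure D1:**
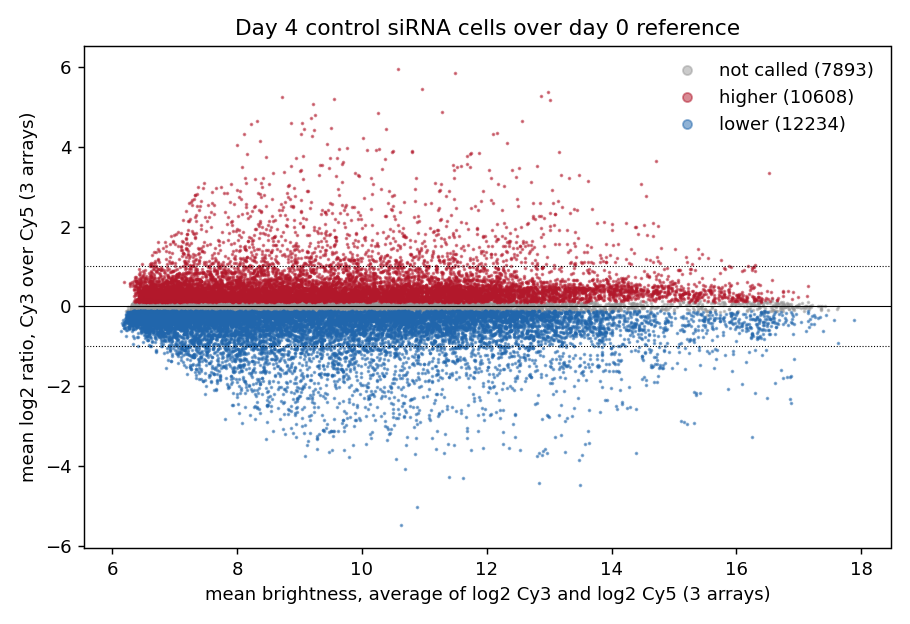
Mean log2 ratio of day 4 control siRNA cells over the day 0 reference (y axis) against mean brightness of the spot, the average of log2 Cy3 and log2 Cy5 (x axis), for the 30735 probes tested, each a mean of 3 arrays. Red marks the 10608 called higher, blue the 12234 called lower and grey the 7893 not called; dotted lines mark a log2 ratio of 1 in size, which 1171 higher and 1835 lower probes reached.

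A change of at least 2-fold was reached by 3006 probes (9.78%), with 1171 higher (3.81%) and 1835 lower (5.97%). The typical probe of these groups changed 2.85-fold upward or 2.77-fold downward at the median. Of the higher probes, 85.7% reached a log2 ratio of 1 on each array by itself, as did 88.3% of the lower ones. Both channels were well above background on all 3 arrays for 1102 of the higher probes (94.1%) and 1708 of the lower ones (93.1%). Few of these ratios thus rest on a spot below that mark, and the same held for 26893 of all 30735 tested probes. On single arrays, 1166 to 1203 of the tested probes lay at least 2-fold up and 1797 to 1954 at least 2-fold down. In limma's test against a 2-fold change in place of no change, 862 probes were higher and 1401 lower.

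Falls outnumbered rises at moderate size, and rises outnumbered falls at large size. From a log2 ratio of 2 upward there were 332 higher and 443 lower probes, from 3 upward 110 and 93, from 4 upward 32 and 7, and from 5 upward 9 and 2. Thus 39.0% of called probes past 1 were higher, against 82.1% of those past 4. Among probes well above background in both channels on all 3 arrays, the counts past 4 were 27 higher and 7 lower. The scanner software's own processed signals gave the same turn, with 2211 higher and 3479 lower past 1, and 132 higher and 57 lower past 4. Median centring did not, and gave 719 higher and 4617 lower past 1, and 21 and 37 past 4. Over all called probes the share higher was 46.4% after loess, 50.3% with the processed signals and 26.7% with median centring, under which the median tested probe stood at -0.28. Falls thus held the majority past 1 and past 2 under loess, the processed signals and median centring alike. Past 2 the processed signals gave 676 higher and 1080 lower, and median centring 220 and 867. Which direction held the majority over all called probes, past 3 and past 4 changed with the processing.

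**Figure D2:**
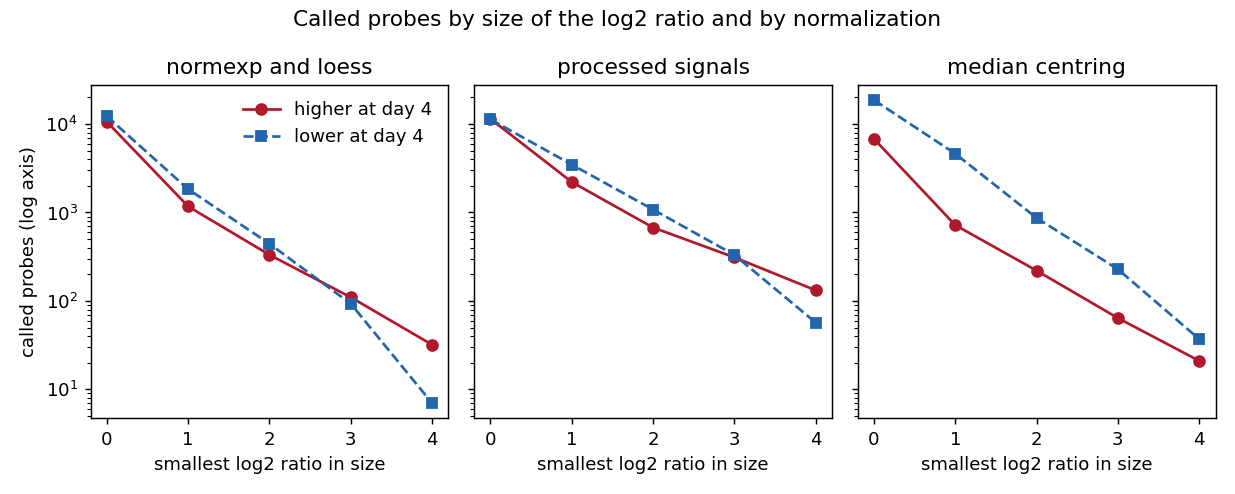
Number of called probes (log axis) whose log2 ratio was at least the size on the x axis, higher (red circles, solid line) or lower (blue squares, dashed line) at day 4, over 3 control siRNA arrays. After normexp and loess the lines cross between 2 and 3, with 332 against 443 and then 110 against 93; with the processed signals they cross between 3 and 4; with median centring falls stay in the majority at each size plotted.

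The balance of the dyes changed with brightness, as 10 equal groups of tested probes ranked by mean signal show. With each array centred on its median alone, the median log2 ratio ran from 0.17 in the dimmest group to -0.80 in the brightest, and after loess it lay between -0.066 and -0.0067 in all 10. Whether any of that slope belongs to the cells was not tested, because dyes were not swapped. Calls were fewer among dim probes. In the dimmest group 53.5% of probes were called and 0.13% were called at 2-fold or more, against 79.7% and 15.1% in the sixth and 82.3% and 11.8% in the brightest. The offset added in background correction shrinks ratios of dim probes, and with an offset of 16 in place of 50 the count at 2-fold or more over all brightness groups was 3648. Its part in the shares by brightness was not tested. The median SD over arrays was 0.094 in the dimmest group and 0.055 in the ninth.

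RNA spiked into the labelling reactions at set ratios gave a separate check of the ratios. For the 10 spike probes, each printed in 32 spots, the log2 ratio on the control arrays ran from -4.09 to 1.76, with a median SD of 0.040 among spots of an array. The scanner software's headers put the slope of observed on expected log ratios at 0.853 to 0.865. By that software's values the spikes' log ratios thus lay closer together than those they were mixed at. The slope leaves out any shift shared by all spikes, so it does not give the size of a single ratio. Between arrays the spikes differed far more than the probes did, with SDs of 0.30 to 0.47. All 10 spike probes were highest on replicate 1, and the mean over spikes was -0.96 on replicate 1, -1.74 on replicate 2 and -1.31 on replicate 3. Once each array's mean was taken off, the median SD was 0.023. The spikes thus moved together by up to 0.79 between arrays, relative to the cells' own RNA, whose ratios are centred on each array by loess. A general rise or fall of all transcripts at day 4 would not be seen in these ratios.

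The largest changes ran to tens-fold in both directions. Counting called probes of 1 sign on every array, and measured in both channels on each, the 10 largest rises were 28.9-fold to 62.1-fold and the 10 largest falls 13.6-fold to 45.0-fold. After loess the leading rise, AGPOA3-20117, was larger than the leading fall, AGPOA3-51006. That order turned with median centring, where their log2 ratios were 5.40 and -6.05, and in the fit of all 12 arrays with slide as a block, where they were 5.75 and -5.82. The spot signal of AGPOA3-20117 was 8514, 9993 and 8710.5 units in Cy3 and 268, 229.5 and 271 in Cy5 on replicates 1 to 3. The day 4 signal stood far above the reference on every array, and no signal of one dye came near those of the other. Its log2 ratios were 5.97, 6.11 and 5.78, a mean of 5.96 ± 0.16 (SD, n = 3; SE 0.063, limma adjusted p = 7.09e-10). On the other arrays it lay at 6.15 ± 0.12, 6.22 ± 0.29 and 5.68 ± 0.11 for F2RL2, LGR4 and GPR124 siRNA (SD, n = 3 each), ratios that share the reference. AGPOA3-51006, the leading fall, was dim at day 4. Its signal was 177.5, 195 and 203 units in Cy3 and 15156.5, 13639 and 13895 in Cy5, so that the reference was bright and the day 4 signal still measurable on every array. The log2 ratios were -5.49, -5.56 and -5.43, a mean of -5.49 ± 0.065 (SD, n = 3; SE 0.046, limma adjusted p = 5.57e-10). On the other arrays it lay at -4.75 ± 0.27, -5.77 ± 0.059 and -5.19 ± 0.20 for F2RL2, LGR4 and GPR124 siRNA.

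**Figure D3:**
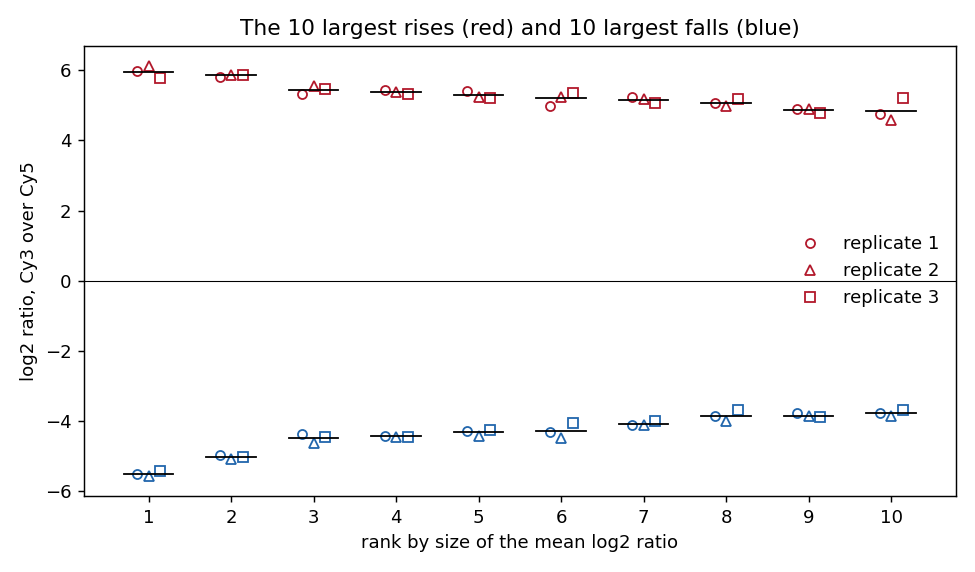
Log2 ratio of day 4 over reference on each of the 3 control siRNA arrays (circles, triangles and squares for replicates 1 to 3) for the 10 largest rises (red) and 10 largest falls (blue), by rank; black bars are means. Rises run from 4.85 to 5.96 and falls from -3.77 to -5.49, and the widest spread among the 20 probes is the SD of 0.34 of the tenth rise.

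The spread between arrays grew with the size of the change. The median SD was 0.072 for probes under 0.25 in size, 0.079 from 1 to 2, 0.095 from 2 to 3 and 0.12 from 3 upward. The tenth-ranked rise shows the widest spread among the leading 20 probes. Its Cy3 signal was 4038.5, 3755 and 8198 units, so that replicate 3 was well above the other two, and its ratios were 4.76, 4.57 and 5.22 (SD 0.34). The second-ranked rise was among the tightest, at 5.82, 5.87 and 5.87 (mean 5.85, SD 0.031), and the fourth-ranked fall, at -4.42, -4.46 and -4.44 (SD 0.019), was tighter still. The 20 were picked from called probes for their size, so their limma adjusted p of at most 6.16e-09 is a description.

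Probes marked well above background at only 1 of the 2 stages were then counted. By the scanner's marks, 131 probes were switched on at day 4, that is well above background in Cy3 and not in Cy5 on all 3 arrays, and 2146 were switched off, the reverse. They make up 0.30% and 4.97% of the 43221 probes. Missing this mark does not mean that no signal was seen. In the dim channel, only 11 of the 131 and 142 of the 2146 also missed the software's significance mark on all 3 arrays. A further 26893 probes (62.2%) were well above background in both channels on all 3 arrays and 9750 (22.6%) in neither channel on any. The marks choose these probes from the same signals as the ratio, so their ratios are a description. For such probes only a bound on the fold can be given. It is the mean normalized signal of the bright channel over that of the dim one, where each array's dim value is the higher of the probe's own signal and the lowest signal of any probe well above background. Where the probe's own signal is the higher on each array, the bound is simply the measured ratio, which another background correction can lower.

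Most of the 2146 switched-off probes were dim, and their ratios were small. Their median signal above local background was 39.0 units in Cy5 and 40.0 in Cy3. Their median log2 ratio was -0.18, and in the limma fit 1338 were called lower at day 4, 14 higher and 794 not called, where 39.8% of all tested probes were called lower. The rule used the same signals, so nothing is read from that count. For 292 no bound above 1-fold existed, the median bound was 1.09-fold, and 69 had a bound of at least 2-fold. Switched-on probes stood further apart, with a median signal above background of 70.0 units in Cy3 and 17.5 in Cy5, a median log2 ratio of 0.70, a median bound of 1.58-fold and 38 probes with a bound of at least 2-fold. The mark was also reached at a lower signal in Cy5, where the lowest normalized log2 signal well above background was 6.06 to 6.14, than in Cy3, at 6.31 to 6.36. With 1 threshold for both channels, chosen after the data were seen, 544 probes were on and 595 off, of which 68 and 381 belong to the 131 and 2146. The excess of switched-off over switched-on probes thus changed with the threshold applied to each dye.

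**Figure D4:**
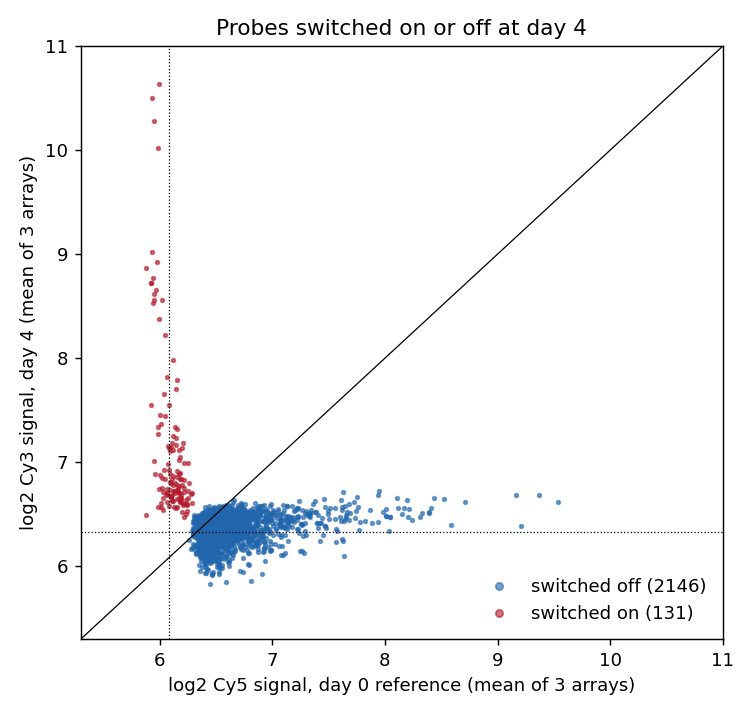
Mean normalized log2 signal over the 3 control siRNA arrays in Cy3 (day 4, y axis) and Cy5 (day 0 reference, x axis) for the 131 probes switched on (red) and the 2146 switched off (blue). The solid line marks equal signal and dotted lines mark the mean of the arrays' lowest signals well above background; most switched-off probes lie close to the solid line, at a median log2 ratio of -0.18.

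Probes just outside the rule had median ratios smaller in size than those inside it. The marks come from the same signals as the ratio, so this order is at least partly built in. With Cy3 well above background on 3 arrays and Cy5 on exactly 1, 54 probes had a median log2 ratio of 0.63, against 0.70 for the 131 inside. With Cy5 on 3 arrays and Cy3 on exactly 1, 730 probes had a median of -0.082, against -0.18 for the 2146 inside. With the bright channel on exactly 2 arrays and the dim one on none, 42 probes on the switched-on side had a median of 0.38 and 714 on the switched-off side a median of -0.051.

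The clearest switches were large. AGPOA3-08176 had the largest bound among switched-on probes. Its Cy3 signal was 1428, 1345.5 and 1223 units over a local background of 54.0 to 56.0, and its Cy5 signal 68.0, 71.5 and 69.0 over 45.0 to 49.0. Day 4 was bright on all 3 arrays and the reference was near background on each. After loess it was at least 23.3-fold higher at day 4. Its log2 ratios came out at 4.87, 4.51 and 4.53, but with Cy5 near background their size depends on the processing, and their mean of 4.64 became 4.38 with median centring and 7.86 with the processed signals. On the 9 arrays that the rule did not use, it was well above background in Cy3 on all 9 and in Cy5 on none, with log2 ratios of 4.82 ± 0.11, 4.77 ± 0.35 and 4.10 ± 0.54 for F2RL2, LGR4 and GPR124 siRNA. In all, 17 switched-on probes had a bound of at least 4-fold, 4 of at least 8-fold and 3 of at least 16-fold.

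Among switched-off probes AGPOA3-12965 had the largest bound. Its Cy3 signal was 94, 99 and 93 units over a background of 51.5 to 56.0, and its Cy5 signal 927, 845 and 860 over 46.0 to 50.5. Day 4 lay below every reference value by a wide margin, although still above its local background. Its log2 ratios were -2.80, -2.95 and -3.002, a mean of -2.92 or 7.55-fold. Since its own Cy3 signal exceeded the lowest signal marked, this is the measured ratio and not a lower limit, and the mean was -2.80 without background correction and -5.70 with the processed signals. In the other groups Cy3 was marked well above background on all 3 arrays of F2RL2 and LGR4 siRNA and on 2 of 3 of GPR124 siRNA. The log2 ratios there were still low, at -2.29 ± 0.11, -1.95 ± 0.0090 and -2.13 ± 0.083. The mark was not set at 1 fixed signal. A Cy3 signal of 139 over 42 missed it on GPR124 siRNA replicate 1, and 125 over 46 reached it on F2RL2 siRNA replicate 2. No difference between groups is therefore read from the marks. Bounds of at least 4-fold were reached by 6 switched-off probes and of at least 8-fold by 0.

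The other 9 arrays gave measurements that had no part in the choice. Their Cy5 held the same reference by the labels, so it repeats the reference measurement. Of the 38 probes switched on with a bound of at least 2-fold, 19 were not well above background in Cy5 on any of the 9 arrays and 0 were on all 9. Of the 69 switched off with such a bound, 60 were well above background in Cy5 on all 9. The 38 were well above background in Cy5 on a median of 0.5 of the 9 arrays and the 69 on a median of 9. By group (F2RL2, LGR4, GPR124), 69, 69 and 60 of the 69 were so on all 3 arrays. Of the 30735 tested probes, 26580, 28448 and 22005 were. Of the 38, 34, 26 and 29 were so on none of a group's 3 arrays, against 247, 403 and 4556 of the 30735. The share of all probes marked in Cy5 on all 9 arrays, or on none, was not counted. The full list of switched-off probes held its mark less. Of the 2146 switched-off probes, 79 were well above background in Cy5 on all 9 arrays. The share per array ran from 9.79% on GPR124 siRNA replicate 1 to 92.8% on F2RL2 siRNA replicate 1, which shares the control arrays' slide. On slide 2 it was 86.2% and 28.1% for F2RL2 siRNA replicates 2 and 3, and 87.2% and 75.4% for LGR4 siRNA replicates 1 and 2. On F2RL2 siRNA replicate 3 the negative control sequence lay 75 units above background in Cy5, against 5.0 to 8.0 on the other arrays. What part slide or background had in these shares was not tested. Over all 43221 probes the share well above background in Cy5 ran from 54.6% to 72.5% on these 9 arrays.

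**Figure D5:**
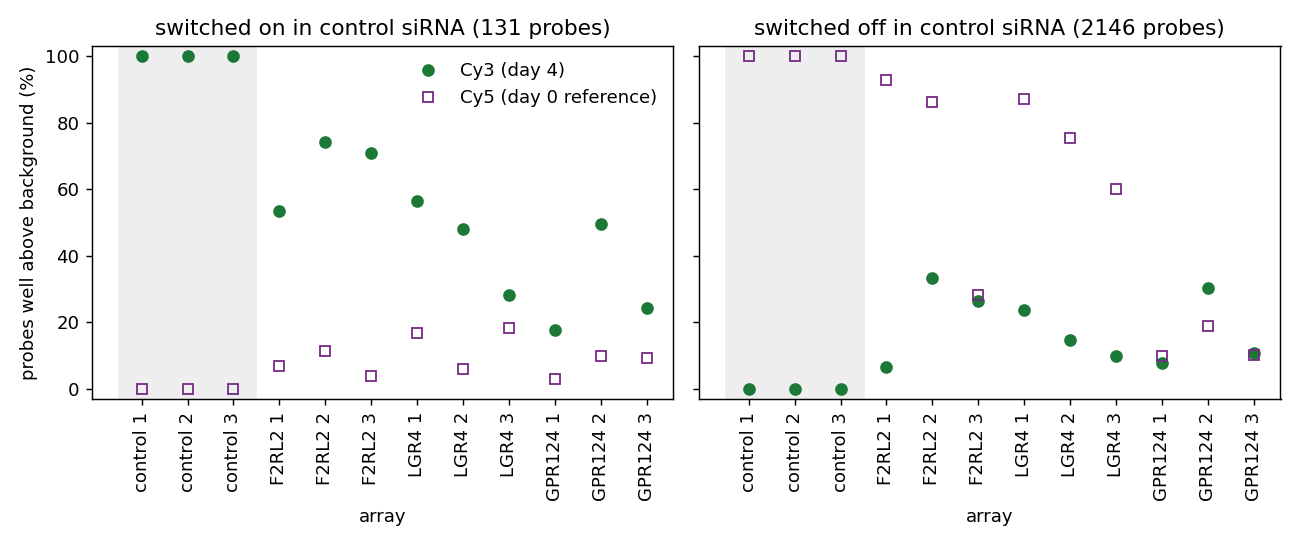
Share of the 131 switched-on probes (left) and the 2146 switched-off probes (right) that were well above background on each of the 12 arrays, in Cy3 (filled circles) and in Cy5 (open squares). Grey shading marks the 3 control siRNA arrays, where the rule sets the shares to 0% or 100%; elsewhere switched-on probes ran from 17.6% to 74.0% in Cy3 and from 3.05% to 18.3% in Cy5.

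At day 4 of the other groups, Cy3 was well above background on all 3 arrays for 27 (F2RL2), 13 (LGR4) and 10 (GPR124) of the 38 larger switched-on probes, and on no array for 6, 7 and 11. Of all 30735 tested probes, which were kept by their marks on the control arrays, 88.3% were well above background in Cy3 on all 3 control arrays and 86.5%, 77.6% and 75.6% on all 3 arrays of F2RL2, LGR4 and GPR124 siRNA. For the 38 probes the array medians of the log2 ratio had a mean of 1.75 ± 0.18 (SD over 3 arrays) in control cells, and of 0.77 ± 0.037, 0.62 ± 0.063 and 0.59 ± 0.15 with siRNA against F2RL2, LGR4 and GPR124. For the 69 larger switched-off probes these means were -1.36 ± 0.064, -1.29 ± 0.081, -1.12 ± 0.074 and -1.02 ± 0.057. The 1171 probes at least 2-fold higher in control cells were at 1.52 ± 0.036 in control and at 1.27 ± 0.038, 1.20 ± 0.030 and 0.70 ± 0.11 in F2RL2, LGR4 and GPR124 siRNA, and the 1835 lower ones at -1.48 ± 0.041, -1.34 ± 0.064, -1.15 ± 0.069 and -1.11 ± 0.069. These probes were picked for their size on the control arrays and all ratios share the reference, so smaller values elsewhere are partly built in and no test of the difference is given. The 3 control arrays lay on slide 1 and the 3 GPR124 siRNA arrays on slide 3, so siRNA and slide cannot be told apart between them. Those GPR124 siRNA arrays had 154 to 280 outlier spots each, against 1 to 2 on the control arrays. LGR4 siRNA replicate 3, also on slide 3, had 335, and the arrays of slides 1 and 2 had 1 to 4 each.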

How the data were processed

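RNA of 12 samples was measured on Agilent arrays of 2 colours, with 400 ng of RNA labelled per dye per the labels' protocols. Spots were quantified with Feature Extraction 9.5.3.1, per the file headers. Each spot's deposited median intensity and the median of the surrounding background, both unnormalized, were taken from the files, as was the deposited processed signal, which that software had background-subtracted, detrended and dye-normalized. A deposited log10 ratio, Cy5 over Cy3, served to check direction. The authors' value table holds log2 ratios of processed Cy3 over processed Cy5, from which it differed by at most 5e-10; its medians for control siRNA replicates 1 to 3 were 0.12, 0.14 and 0.087. Scale, centring and direction are thereby known.

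Signals were corrected with normexp (offset 50) and ratios normalized by loess within each array, with the 1417 control spots at weight 0; spots marked as outliers were left out, which removed 1 value from each of 2 tested probes. A probe was tested if 1 channel was well above background on all 3 control arrays. The control log ratio was tested against 0 by lmFit and eBayes on the 3 control arrays (limma 3.58.1, R 4.3.3, Benjamini-Hochberg), and the script was tested on simulated data. Per-channel signals for bounds were also scaled between arrays (Aquantile). The channels of an array are paired by the ratio. Members and lists were chosen with earlier results of these data known. Named probes are, in each direction, the largest ratio measured in both channels and the switched probe with the largest bound; the gene lists fixed for this study could not be used because no probe is paired with a gene.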

Additional observations from a re-analysis of the deposited data

How the results depend on the processing

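For the count of called probes (22842) and of those at least 2-fold changed (3006), leaving out 1 control array in turn gave 20111 to 22917 and 2988 to 3049. Leaving out an array moved the 131 switched-on probes to 140 to 181 and the 2146 switched-off probes to 2438 to 3011. The rule asks for the marks on every array, so leaving 1 out can only add probes. The 2-fold count rose to 5336 with median centring and to 5690 with the processed signals; it stayed within 1.5 times under every other alternative, and of the 3006 probes 2971 were again called in the same direction at 2-fold or more with the processed signals and 2520 with median centring. With all 12 arrays in the fit, 20127 probes were called, and with slide as a block in that fit 13549. The 3 control arrays lay on slide 1, which held 1 other array, so the blocked value is an average over 3 slides and no slide effect can be seen within the control group. Without the array as a block (no pairing of the channels), 21618 probes were called. The 4 named probes kept their direction and stayed past limma's threshold under every alternative, apart from the filter on both channels, which does not test the 2 switched ones. They were picked on these same control arrays, by size or by mark, so this was largely built in and is a description.

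The counts of switched probes depended on the mark. They were 259 on and 3745 off when 2 of 3 arrays sufficed, 207 and 969 by the software's significance mark, 11 and 142 when the dim channel also had to miss that mark, 544 and 595 with 1 threshold for both channels, and 38 and 69 with a bound of at least 2-fold. The last pair of settings was chosen after seeing the data. With the processed signals the bounds rose to 173-fold for AGPOA3-08176 and 29.6-fold for AGPOA3-12965, and the median bounds to 4.37-fold (on) and 1.15-fold (off). Without background correction the log2 ratio of AGPOA3-12965 was -2.80 instead of -2.92, so its fold of 7.55 is no lower limit.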
